A study of Mus musculus with 4 samples.

Results

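Melanocytes were the 66 cells, of 28607 kept in 4 single-cell libraries of mouse back skin, that carried at least 10 unique molecular identifiers (UMIs, counted RNA molecules) of Pmel, Dct, Mlana and Tyrp1 together. They also had no UMI of the immune gene Ptprc and less than 2% of their gene UMIs from the fibroblast genes Col1a1, Col1a2, Col3a1 and Dcn. A cell was kept with at least 500 genes, at least 1000 gene UMIs and at most 10% mitochondrial UMIs. The cells were thus chosen by the measured levels of these genes, so their high values, and the difference of these cells from others, are a description and no finding. Of the 66, 7 came from the Cd226-/- library of DMBA/TPA-treated skin, 58 from the WT library of DMBA/TPA-treated skin, 1 from the naive CD45- library and 0 from the naive CD45+ library.

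All mice were on the BALB/c background and were either WT or lacked Cd226, the gene of the activating receptor DNAM-1. Treated back skin had been shaved and had received 25 µg of DMBA, a carcinogen that mutates DNA, once, and then 5 µg of the inflammatory tumour promoter TPA weekly for 3 applications. Cells were taken 3 weeks after treatment, and each sample pooled 3 mice. CD45+ and CD45- cells of treated skin were sorted and mixed 1:1, whereas naive CD45- and naive CD45+ cells each gave a library in which WT and Cd226-/- cells were pooled 1:1. Since each group is 1 library, no test was possible and none is given. Exact 95% intervals below cover counting error only, and neither differences between mice nor amplification. Cells of a library are not replicates.

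Melanocytes are pigment cells that arise from the neural crest. In furred skin of mice they sit mainly in hair follicles, where stem cells of the bulge region supply the pigment-making cells of the hair bulb at each hair cycle. The transcription factor MITF, together with SOX10 and PAX3, switches on the genes of the pigment organelle, the melanosome. KIT, EDNRB and MC1R are surface receptors through which neighbouring cells guide survival, migration and pigment type. BALB/c mice are albino through a coding change in Tyr, so their melanocytes carry the transcripts of pigment synthesis but make no melanin.

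The rule genes lie at chr10:128704195-128720238, plus strand (Pmel, the fibril protein of the melanosome), chr14:118012790-118052244, minus strand (Dct, dopachrome tautomerase), chr19:29697824-29708634, plus strand (Mlana, a melanosome membrane protein) and chr4:80834123-80851719, plus strand (Tyrp1, a melanin-synthesis enzyme), in mm10 (GRCm38) coordinates of GENCODE. Tyr, the tyrosinase that starts melanin synthesis, lies at chr7:87424771-87493512, minus strand. The 5′ ends of Pmel and of Cdk2, on the opposite strand, overlap by 837 bases.

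Promoters of 3 of these genes are shown because their products are the enzymes of melanin synthesis that MITF is known to switch on. Dct and Tyrp1 helped to set the ranges of melanocytes described below, so their lower level in the low range is fixed by the choice. Each is the 250 bases before the RefSeq start in GRCm38, written 5′ to 3′ on the gene's strand, with the letters CATGTG, the core of the M-box that MITF binds, or its reverse complement CACATG in capitals. The windows are chr7:87493513-87493762, minus strand for Tyr, chr4:80833963-80834212, plus strand for Tyrp1 and chr14:118052247-118052496, minus strand for Dct. The promoter table matched 3 of the 5 genes. Pmel and Mlana are not shown.
Tyr: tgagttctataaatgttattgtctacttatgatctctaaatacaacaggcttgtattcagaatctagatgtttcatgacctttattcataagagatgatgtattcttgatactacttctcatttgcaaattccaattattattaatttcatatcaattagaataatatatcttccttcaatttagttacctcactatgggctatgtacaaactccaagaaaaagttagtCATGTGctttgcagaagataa
Tyrp1: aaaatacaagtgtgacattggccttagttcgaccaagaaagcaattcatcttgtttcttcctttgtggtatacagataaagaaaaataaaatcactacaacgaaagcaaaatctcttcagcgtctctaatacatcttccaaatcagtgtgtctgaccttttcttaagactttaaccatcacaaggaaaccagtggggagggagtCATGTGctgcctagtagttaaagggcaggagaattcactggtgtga
Dct: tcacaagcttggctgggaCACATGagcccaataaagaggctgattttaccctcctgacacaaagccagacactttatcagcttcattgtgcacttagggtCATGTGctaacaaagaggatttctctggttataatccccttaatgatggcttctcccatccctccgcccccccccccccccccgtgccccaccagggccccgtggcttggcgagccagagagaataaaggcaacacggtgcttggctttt

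The first base of the match lay 21 bases before the start in Tyr and 46 bases before it in Tyrp1. Dct held 2 matches, 150 bases before the start and, on the other strand, 232 bases before it. On either strand, CATGTG stood in 4025 of 32851 promoter windows of this length (12.3%). Of 16 genes of the rule and of pigment synthesis, 11 had a promoter in the table and 8 of these held the letters: Dct, Oca2, Slc24a5, Slc7a11, Trpm1, Tspan10, Tyr and Tyrp1. A match describes letters and is not evidence of a bound site.

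The Cd226-/- and WT treated libraries held 7991 and 8527 barcodes with 71245703 and 72606822 gene UMIs, and the naive CD45- and CD45+ libraries 11875 and 5913 barcodes with 81406730 and 42043869. Kept cells had median UMI counts of 6676 to 9214.5. Between 9 and 21 barcodes were shared by each of the 6 pairs of libraries, and 0 of these were melanocytes. The DNAM-1 antibody tag had a median of 2 counts (1 to 3) over the Cd226-/- melanocytes and of 15 (6 to 71) over the WT melanocytes, while other kept cells with no Ptprc UMI had medians of 2 in the Cd226-/- and 16 in the WT library. In the naive CD45- library the melanocyte had 111 counts, beside a median of 106 over the other kept cells with no Ptprc UMI. The tag level thus differed between whole libraries, and nothing is read from it about the receptor on melanocytes. Cd226 itself had 0 UMIs in all 66 melanocytes. Its level in the other kept cells was 1.84 CPM (UMIs divided by all gene UMIs of the cells, scaled to 1000000) in the Cd226-/- library and 3.24 CPM in the WT library; the position of the deletion relative to the counted 3′ end was not given in the sources used here.

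Melanocytes made up 0.194% (exact interval 0.078 to 0.399%) of the 3608 kept Cd226-/- cells with no Ptprc UMI, against 1.09% (0.826 to 1.4%) of 5341 WT cells. In the naive CD45- library they were 0.00902% (0.000228 to 0.0502%) of 11089 such cells. In the naive CD45+ library the count was 0 of 422; 3 counts of this total are 0.711%, and the exact interval reaches 0.87%. The WT library thus held 58 of the 66 melanocytes. The intervals of the Cd226-/- and WT shares cover the counting of cells in these 2 libraries and say nothing of mice. The sort and the 1:1 mixing set how many immune cells were loaded, so the share of all kept cells, 0.105% in Cd226-/- and 0.804% in WT, is not a tissue share. Melanocytes had more mitochondrial UMIs than the other kept cells without Ptprc, with medians of 5.81% in Cd226-/- and 6.6% in WT melanocytes, against 2.05% and 2.26% in the other cells of these libraries. At most 5% in place of 10% left 3 Cd226-/- and 13 WT melanocytes. Whether the 2 pools of 3 mice differed in hair-cycle stage or in the skin dissected was not tested.

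With 10 or more pigment UMIs, 3 Cd226-/-, 8 WT and 0 naive CD45- kept cells were out through Ptprc alone, and 3, 19 and 1 through the fibroblast genes alone. Just outside the threshold, with 5 to 9 pigment UMIs, stood 2 Cd226-/- and 35 WT cells. Just inside it, with 10 to 14, stood 1 Cd226-/-, 5 WT and 1 naive cell. Pigment RNA was also found outside melanocytes. After thinning each cell to 2000 UMIs, 6.12% of WT cells with a Ptprc UMI, which should lack pigment genes, still held a Pmel UMI and 6.74% a Dct UMI. The 4 rule genes summed to 26039 CPM in Cd226-/- melanocytes, against 30.5 CPM in the other kept cells of that library. In the WT library the sums were 45077 CPM in melanocytes and 211 CPM in other cells.

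Of the 66 melanocytes, 13 also carried signals of another cell. The limits, set after seeing the data, were 100 counts of the CD45 tag, 0.25% of UMIs from keratinocyte genes, 0.5% from the fibroblast genes and 1% from hemoglobin. One Cd226-/- cell passed the hemoglobin limit with 29.7%. Of 58 WT cells, 11 passed a limit: 3 by the CD45 tag, 5 by keratinocyte genes and 4 by fibroblast genes, 1 of them by both the tag and the fibroblast genes. The single naive cell passed the keratinocyte limit. Scrublet, a doublet caller, marked 1 WT melanocyte and 0 in the other libraries. The comparison of ranges leaves these cells out; the comparison of libraries keeps them and gives values without them where these are named.

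The label was checked against genes that the rule did not use. At least 1 UMI of Mitf, Sox10, Pax3 or Kit, regulators and a receptor of melanocytes, was found in all 7 Cd226-/- and in 56 of 58 WT cells. One UMI of these genes is common elsewhere, since 46.3% of the other Cd226-/- and 39.8% of the other WT kept cells with no Ptprc UMI held one. After thinning to 2000 UMIs, which left out 113 and 165 of those cells, the shares were 91.3% in Cd226-/- melanocytes against 13.4% in the other cells, and 85% in WT melanocytes against 11.9% in the other cells. In cells with a Ptprc UMI, some of which, such as mast cells, use Kit and Mitf, the thinned shares were 5.72% in Cd226-/- and 6.29% in WT skin. The 4 genes summed to 1016 CPM in Cd226-/- melanocytes, against 80.1 CPM in the other cells with no Ptprc UMI, and to 1271 CPM in WT melanocytes, against 68.4 CPM in those of WT skin. All 4 rule genes were detected in 6 of 7 Cd226-/- and in 49 of 58 WT cells. The 20 genes with the largest ratio of WT melanocytes over the other WT cells, among genes with at least 100 UMIs, describe the choice of cells. They were led by Tspan10 (279-fold), Gpr143 (265-fold), a melanosome receptor, Ptgds (249.8-fold), prostaglandin D synthase, and Trpm1 (244-fold), a melanocyte ion channel, and included Pax3, Oca2, Slc45a2, Tyr, Slc24a5 and Sox10. Gm3776 was also among them, but it is a near copy of its neighbour Gsta1, so reads of the pair may be exchanged.

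Immune and fibroblast markers were low over the pooled melanocytes but not at 0, whereas some markers of other skin cells were not lower than elsewhere. The 7 immune markers summed to 20.1 CPM in Cd226-/- and 75.7 CPM in WT melanocytes, against 5117 and 2876 CPM in the other cells of these libraries. The 6 fibroblast markers summed to 161 CPM in Cd226-/- and 1513 CPM in WT melanocytes, against 30808 and 46418 CPM in the other cells. The 9 keratinocyte markers summed to 70.4 and 551 CPM in Cd226-/- and WT melanocytes, against 85.1 and 390 CPM in the other cells. The WT sum was thus above that of the other WT cells. Without the cells that carried other signals, the fibroblast markers summed to 191 CPM in Cd226-/- and 445 CPM in WT melanocytes, the keratinocyte markers to 76.6 and 125 CPM, and the immune markers to 25.5 and 39.5 CPM. Schwann cells share the neural-crest origin of melanocytes; their myelin gene Mbp had 0 UMIs in Cd226-/- and 1 in WT melanocytes. The 5 endothelial, 5 mural and muscle, and 4 Merkel-cell markers had 0 UMIs in Cd226-/- melanocytes and 31, 17 and 20 in WT melanocytes, or 30, 0 and 1 in the WT melanocytes without other signals. The 7 ligands that other skin cells make for melanocytes had 0 UMIs in Cd226-/- and 29 in WT melanocytes, 20 of the 29 in WT cells without other signals. The Merkel-cell markers summed to 24.4 CPM in WT melanocytes, against 6.57 CPM in the other WT cells, with 19 of the 20 UMIs in 1 cell. The 8 Schwann-cell markers summed to 674 CPM in Cd226-/- and 503 CPM in WT melanocytes, above the 245 and 338 CPM of the other cells. Without the cells that carried other signals these sums were 459 and 558 CPM. Of the 8 Schwann-cell markers 2 had enough UMIs for a ratio between the libraries, and neither reached 2-fold.

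Pigment-gene content varied widely among the cells. The 4 rule genes took 0.328 to 5.26% of the UMIs of a Cd226-/- cell, with a median of 1.07%, and 0.103 to 8.63% of those of a WT cell, with a median of 3.95%. The cells were therefore described in a low range, under 2%, and a high range, at or above it; this is a range of a score and not a cell type, and its boundary was set after seeing the values. Nearest to the boundary were cells at 1.97 and 2.68% in Cd226-/- and at 1.92 and 2.28% in WT skin, and 3 Cd226-/- and 7 WT cells lay between 1 and 3%. The low range held 5 of 7 Cd226-/- cells (71.4%, interval 29.0 to 96.3%) and 20 of 58 WT cells (34.5%, 22.5 to 48.1%), so the intervals overlapped. Without the cells that carried signals of other cells the counts were 4 of 6 and 14 of 47.

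**Figure D1:**
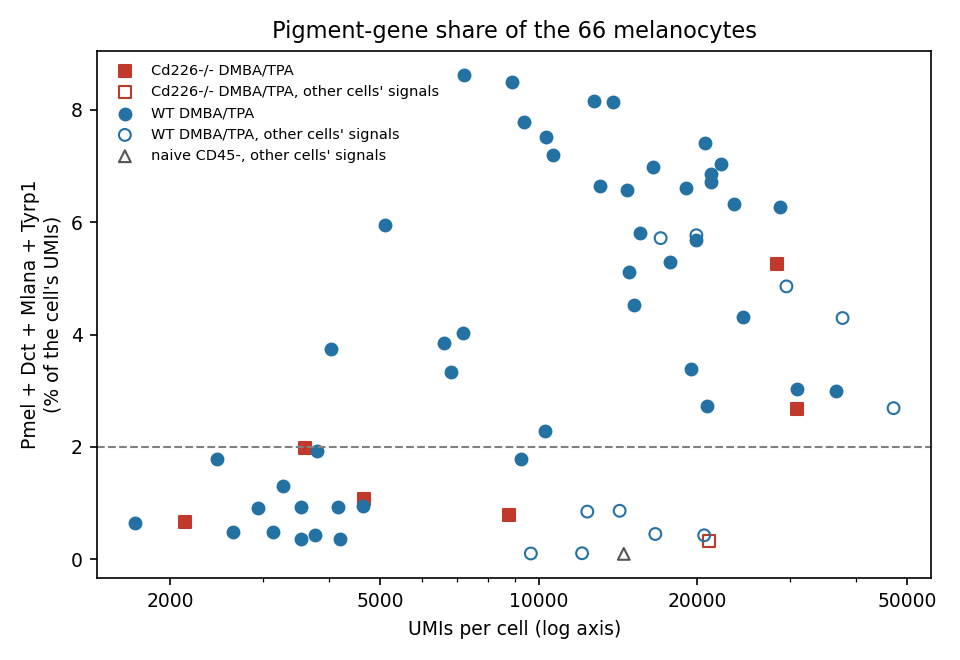
Each point is 1 melanocyte, with its UMI count on a logarithmic x axis and the percentage of its UMIs from Pmel, Dct, Mlana and Tyrp1 on the y axis; open symbols carry signals of another cell, and the dashed line marks 2%. Among WT cells drawn filled, the low range reaches 9260 UMIs and the high range 36583 UMIs. Over all WT cells, filled and open, these maxima are 20605 and 47128 UMIs.

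Low-range cells also held less RNA. Without cells that carried other signals, the 14 low-range WT cells had a median of 3539 UMIs (1715 to 9260) and the 33 high-range WT cells a median of 15197 (4036 to 36583). Over these 47 cells of 1 library, pigment share and UMI count ran together with a Spearman coefficient of 0.563, a description in which both values share the cell's depth. The comparison of ranges below sums UMIs over those 14 and 33 cells, 53031 and 529064 in all, and divides by the totals. Of 4138 genes with at least 20 UMIs over both, 481 (11.6%) were at least 2-fold higher and 838 (20.3%) at least 2-fold lower in the low range, and the median over all genes was near equality. Scaling by the median of gene ratios in place of totals lowered every log2 ratio by 0.26 and gave 316 higher and 1076 lower.

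The pigment-synthesis genes that the rule did not name were lower in the low range: 9 of 10 with enough UMIs, against the 20.3% of all genes, with a median log2 ratio of -3.53. The boundary used genes of the same pathway, so nothing is read from that count. Tyr was at 151 CPM in the low range, against 1709 CPM in the high range. Slc24a5, an ion exchanger of the melanosome, was at 132 CPM in the low range, against 2773 CPM in the high range. Trpm1 was 29.3-fold lower (interval 14.9 to 68). Oca2, a melanosome channel, had 0 UMIs in the 14 low-range cells against 594 in the high range. With 3 counts put over the 14 cells Oca2 was 19.8-fold lower, and its exact interval starts at 16.1-fold. These genes kept this direction with the boundary at 1 or 3%. Cd63 and Gpnmb, membrane proteins also found in lysosomes of other cells, differed least among these 10, at 3375 and 1226 CPM in the low range, against 6818 and 1779 CPM in the high range. In melanosome transport 5 of 11 genes were lower and 1 higher; Rab38, which carries pigment enzymes to the melanosome, was at 56.6 CPM in the low range, against 764 CPM in the high range.

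Of 9 tested regulators of the lineage, 2 were at least 2-fold higher in the low range and 0 were lower, beside 11.6 and 20.3% of all genes. Mitf was at 962 CPM in the low range, against 537 CPM in the high range, a ratio of 1.79 (interval 1.3 to 2.42). Pax3, which holds melanocyte precursors in an undifferentiated state, was at 679 CPM in the low range, against 255 CPM in the high range, a ratio of 2.66 (interval 1.79 to 3.87). Zeb2 was at 829.7 CPM in the low range, against 231 CPM in the high range, and Sox10 at 113 CPM in the low range, against 157 CPM in the high range with a ratio interval of 0.257 to 1.64. With the boundary at 1 or 3%, the ratio was 2.42 and 1.37 for Mitf, and 3.13 and 1.69 for Pax3. Summed Mitf and Pax3 levels were thus higher in the low range at each of the 3 boundaries. However, 22 of the 51 low-range Mitf UMIs at the 2% boundary came from 1 cell. That cell, with a pigment share of 0.949%, lies in the low range at all 3 boundaries. The richest high-range cell held 33 of 284 Mitf UMIs. The summed Mitf ratio thus leans on 1 low-range cell at each boundary. A ratio without these cells is not given here, and no difference in Mitf between the ranges is read from the sums.

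Of 8 receptors and adhesion genes, 1 was higher and 4 were lower in the low range, beside 11.6 and 20.3% of all genes. Erbb3, a neuregulin receptor of neural-crest cells, was at 321 CPM in the low range, against 49.1 CPM in the high range. Ednrb was at 169.7 CPM in the low range, against 1427 CPM in the high range, and Mc1r, the melanocortin receptor, had 0 UMIs in the low range against 88 in the high range. Kit was at 585 CPM in the low range, against 414 CPM in the high range, a ratio of 1.41 (interval 0.937 to 2.06) whose interval includes equality. Ptgds was 8-fold lower (interval 6.57 to 9.83).

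Genes used as markers of precursor or stem-like melanocytes were sparse. Of 17 listed, 5 had enough UMIs in this comparison and 3 of these were higher in the low range, against 11.6% of all genes. Foxd3, a neural-crest factor, was at 132 CPM in the low range, against 32.1 CPM in the high range and rested on 7 and 17 UMIs. Sox2 and Abcb5 had 0 UMIs in every melanocyte, Ngfr had 2 and Sox9 6. Cd34 had 38 UMIs over WT melanocytes, 15 of them in 1 cell, and Aqp1 had 22 UMIs in 1 WT cell that also held 10 UMIs of the endothelial gene Cldn5; whether these came from a second cell was not tested.

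Class I antigen-presentation genes were among the higher genes of the low range. Of 8 genes of the interferon-gamma and MHC list, 7 were at least 2-fold higher and 0 lower, against 11.6 and 20.3% of all genes, with a median log2 ratio of 2.28. The class I heavy chain H2-D1 was at 6147 CPM in the low range, against 813 CPM in the high range, beside 2498 CPM in the other WT cells. Its partner B2m was at 4639 CPM in the low range, against 1106 CPM in the high range, beside 1727 CPM elsewhere. Both low-range levels were thus above those of the rest of the library. Psmb8, an immunoproteasome subunit, was detected in 12 of 14 low-range and 5 of 33 high-range cells, or in 66.3 and 5.59% after thinning to 2000 UMIs, which drops 1 low-range cell. The class II gene Cd74 had too few UMIs for a ratio between the ranges. It was at 18.9 CPM in the low range and 3.78 CPM in the high range, beside 1923 CPM in other cells. Of 5 type I interferon genes 4 were higher, among them Bst2 at 396 CPM in the low range, against 90.7 CPM in the high range and Isg15 at 226 CPM in the low range, against 30.2 CPM in the high range.

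Single genes were named where the 2-fold difference remained without the cell richest in the gene and under the other scaling, and they were ordered by how far the closer end of the interval lay from a ratio of 1. By this rule 190 genes were higher and 361 lower in the low range, and the first 10 in each direction are named. The higher ones were H2-Q7, H2-T23, H2-D1 and Psmb8 of antigen presentation, Vim, Txnip, Cd59a, Enpp2, Sulf2 and Col16a1. Vim, the intermediate filament of mesenchymal cells, was at 8467 CPM in the low range, against 766 CPM in the high range, a ratio of 11.1 (interval 9.65 to 12.7). Enpp2, which makes lysophosphatidic acid, was at 1320.0 CPM in the low range, against 142 CPM in the high range, beside 118 CPM in other cells. Of 4 fibroblast markers 3 were also higher in the low range, and the 6 summed to 717 CPM in the low range, against 418 CPM in the high range and 46418 CPM in the other cells; their part in these genes was not tested. The lower ones were Oca2, Trpm1, Slc24a5, Pmel, Ptgds, Mlana, Tyr and Gpr143 with Chchd10, a mitochondrial protein, and Manf, a protein of the endoplasmic reticulum.

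**Figure D2:**
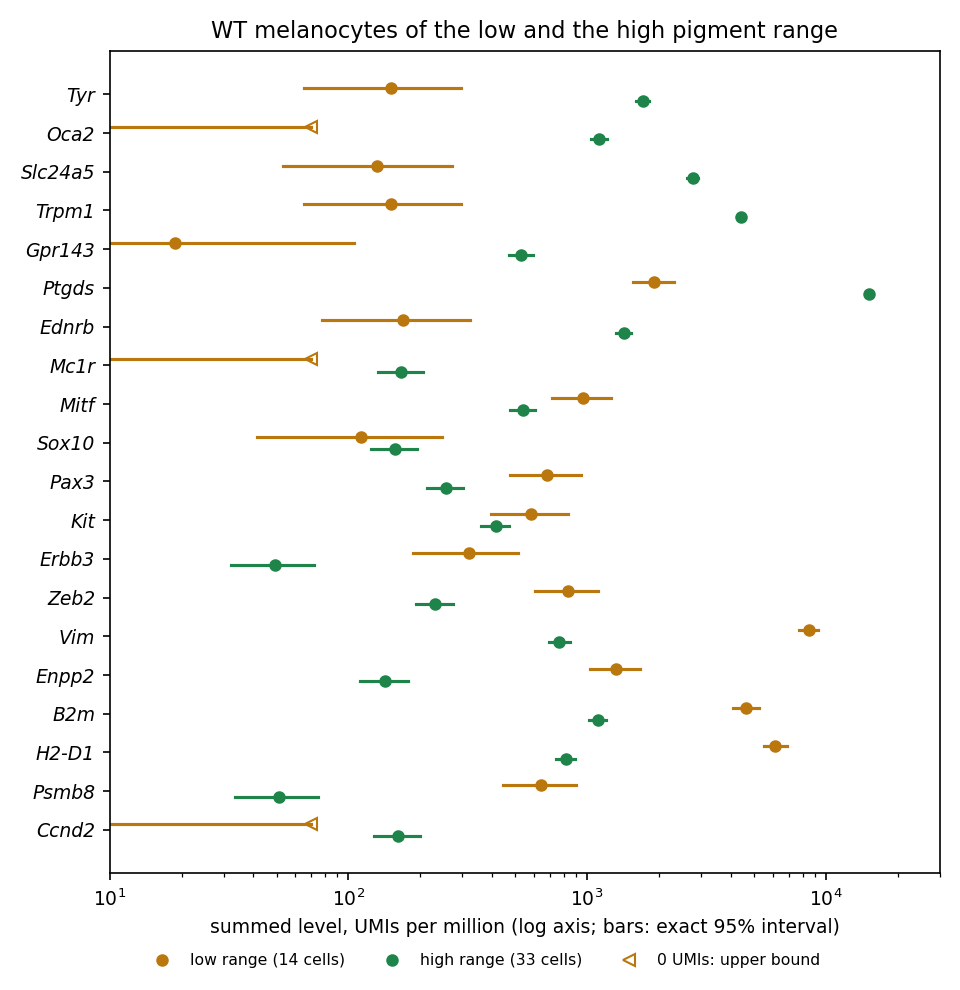
Summed levels of 20 genes in the 14 low-range and 33 high-range WT melanocytes without signals of other cells, in CPM on a logarithmic axis with exact 95% counting intervals; a triangle marks the upper bound where 0 UMIs were found. Tyr to Mc1r lie lower in the low range, and Erbb3, Zeb2, Vim, Enpp2, B2m, H2-D1 and Psmb8 lie higher there.

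The 4 low-range Cd226-/- cells without other signals, on few UMIs, were set against the 2 high-range ones. Of 583 genes with at least 20 UMIs over these cells, 41 (7.03%) were at least 2-fold higher and 175 (30.0%) at least 2-fold lower in the low range. Of the 10 genes named as higher in WT skin, 8 were at least 2-fold higher here too. Among these 8, only Vim and H2-D1 had at least 20 UMIs over these cells, so the 7.03% is no background for the others. Col16a1, for example, had 4 and 2 UMIs in the low and high range, with a ratio interval of 0.884 to 68.2. Of the 10 named as lower, 8 were at least 2-fold lower, but the same pigment share split the cells of both libraries, so nothing is read from the lower ones. H2-D1 was at 7816 CPM in the low range, against 676 CPM in the high range, and Vim at 9118 CPM in the low range, against 1301 CPM in the high range. H2-T23 had 17 UMIs in the low range and 0 in the high range. Slc24a5 was at 365 CPM in the low range, against 2315 CPM in the high range. The exceptions among the higher genes, H2-Q7 and Txnip, had at most 2 UMIs in either range. Those among the lower genes were Mlana, 1.95-fold lower, and Gpr143, with 0 UMIs in the low range and 15 in the high range.

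UMIs of G2/M genes came from few cells. The 22 genes of the G2/M phase had 36 UMIs over the Cd226-/- melanocytes and 1119 over the WT melanocytes. In WT skin 8 cells with at least 20 such UMIs held 1055 of them (94.3%), and the next cell had 11. Of these 8, 7 were in the high range and 1 in the low range. Both the low-range cell, with 94 such UMIs, and a high-range cell, with 250, were among the cells that carried keratinocyte genes, at 0.393 and 0.278% of their UMIs. A pair of the other high-range cells had 0.23 and 0.159%, under the limit. In Cd226-/- skin 1 cell reached the limit, with 26 of the 36 UMIs, and it lay in the high range. The share of cells was therefore 1 of 7 in Cd226-/- and 8 of 58 in WT melanocytes. A limit in UMIs favours cells with more RNA: a low-range WT cell with 8 such UMIs of 9260 stood at 864 CPM, beside 918 CPM in that Cd226-/- cell. At 500 CPM or more stood 0 of 5 low-range and 1 of 2 high-range Cd226-/- cells, and 2 of 20 low-range and 9 of 38 high-range WT cells. Without cells that carried other signals, the WT counts were 1 of 14 in the low range and 8 of 33 in the high range. Mki67, a marker of cycling cells, had 4 UMIs in 2 Cd226-/- cells and 92 in 10 WT cells.

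The S-phase genes had 128 UMIs in Cd226-/- melanocytes, 103 of them in the single high-range cell that also led in G2/M genes, and 312 in WT melanocytes, at most 76 in a cell. The G1 cyclins Ccnd1 and Ccnd2 had 0 UMIs in the 14 low-range WT cells, against 32 and 85 in the 33 high-range cells. With 3 counts put over the 14 cells, which is a floor and not a bound, Ccnd2 was 2.84-fold lower and Ccnd1 1.07-fold lower in the low range. No difference is read for Ccnd1. The cell-cycle inhibitor Cdkn1b was at 151 CPM in the low range, against 49.1 CPM in the high range. This rested on few UMIs, since all 9 cell-cycle inhibitors and D cyclins together had 12 UMIs in the low range and 181 in the high range. Cdkn2a, the locus of a pair of cell-cycle inhibitors, had 0 UMIs in Cd226-/- and 1 in WT melanocytes.

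**Figure D3:**
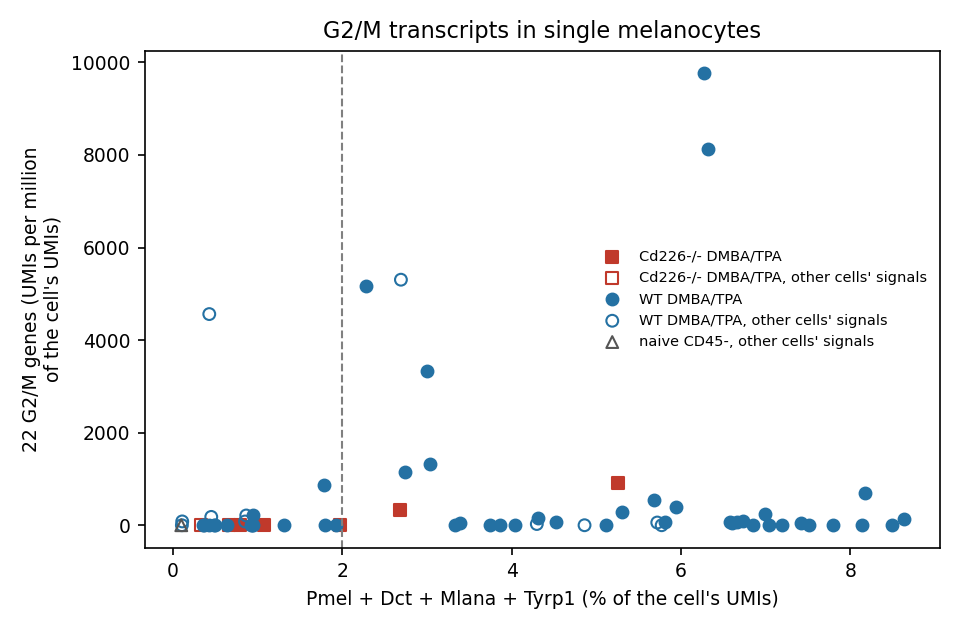
Each point is 1 melanocyte, with its pigment-gene percentage on the x axis and the summed level of 22 G2/M genes, in CPM of its own UMIs, on the y axis; the dashed line marks 2%. Most cells lie near 0, and 1 Cd226-/- cell reaches 918 while WT cells reach 9763 CPM.

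Inflammatory transcripts were low in melanocytes. The 34 genes of the list summed to 453 CPM in Cd226-/- and 1186 CPM in WT melanocytes, against 17254 and 11404 CPM in the other cells of these libraries. Over single cells the sum had a median of 389 CPM in Cd226-/- and 502 CPM in WT melanocytes, so the medians were close. The WT excess rested on few cells: 1 cell with 677 CD45-tag counts held 168 of 177 Cxcl2 UMIs and 61 of 65 Il1b UMIs, and 1 cell with fibroblast genes at 1.02% held 56 of 57 Cxcl5 UMIs. Without cells that carried other signals, the low range of WT stood at 566 CPM and the high range at 499 CPM. Another WT cell, with 933 CD45-tag counts, held 177 of 178 Il17a and 116 of 117 Il17f UMIs. More evenly spread were Nfkbia, an inhibitor of NF-kB, found in 30 of 58 WT cells, and Sod2, found in 38.

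Immediate-early genes, which rise soon after stimulation or tissue dissociation, summed to 1780.2 CPM in Cd226-/- and 3646 CPM in WT melanocytes, both far under the 16785 and 18289 CPM of the other cells. Fos was at 282 CPM in Cd226-/- melanocytes, against 421 CPM in WT melanocytes. Jun was at 402 CPM in Cd226-/- melanocytes, against 946 CPM in WT melanocytes. Heat-shock genes summed to 7272 CPM in Cd226-/- and 5316 CPM in WT melanocytes, and the 17 p53 targets, which respond to DNA damage, to 382 CPM in Cd226-/- and 462 CPM in WT melanocytes. The 12 output genes of the MAP-kinase pathway summed to 885 CPM in Cd226-/- and 1250.3 CPM in WT melanocytes.

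Between the treated libraries, summed levels of the 7 Cd226-/- and 58 WT melanocytes were set side by side, on 99428 and 819005 UMIs. Of 5667 genes with at least 20 UMIs over both, 390 (6.88%) were at least 2-fold higher and 1045 (18.4%) at least 2-fold lower in Cd226-/- melanocytes, and the median log2 ratio was -0.13. Scaling by the median of gene ratios lowered all log2 ratios by 0.18 and gave 259 higher and 1278 lower. The 2 high-range Cd226-/- cells held 59.5% of the Cd226-/- UMIs, so these ratios describe few cells. Since 5 of 7 Cd226-/- and 20 of 58 WT cells lay in the low range, values within the high range are also given for some genes.

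The rule genes were lower over the pool, Mlana most. Pmel was at 8689.7 CPM in Cd226-/- melanocytes, against 12670.3 CPM in WT melanocytes, and Dct at 10721 CPM in Cd226-/- melanocytes, against 17918 CPM in WT melanocytes. Tyrp1 was at 4747 CPM in Cd226-/- melanocytes, against 7208 CPM in WT melanocytes. In the high range the ratios of Cd226-/- over WT were 0.909 for Pmel, 0.788 for Dct and 0.837 for Tyrp1. Mlana was at 1881 CPM in Cd226-/- melanocytes, against 7281 CPM in WT melanocytes, and within the high range it was 4.38-fold lower. The 2 high-range Cd226-/- cells had 1685 and 2189 CPM of Mlana, and 37 of 38 high-range WT cells lay above both. All 4 genes entered the choice of cells, so these are descriptions.

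Of 11 pigment-synthesis genes, 0 were higher and 6 lower in Cd226-/- melanocytes, beside the 6.88 and 18.4% over all genes. Tyr was at 593 CPM in Cd226-/- melanocytes, against 1336 CPM in WT melanocytes, and Oca2 at 211 CPM in Cd226-/- melanocytes, against 875 CPM in WT melanocytes. Trpm1 was at 885 CPM in Cd226-/- melanocytes, against 3592 CPM in WT melanocytes, 4.06-fold lower (interval 3.28 to 5.08). In the high range Trpm1 had 1069 and 1589 CPM in the Cd226-/- cells and a median of 3522 CPM in the WT cells, 35 of 38 of which lay above both. Tyr had 713 and 989 CPM in these Cd226-/- cells, against a median of 1557 CPM in high-range WT cells, and Oca2 had 318 and 356 CPM, against a median of 1181 CPM. For each of the pair, 33 of 38 WT cells lay above both Cd226-/- cells. Slc24a5 differed less, at 1709.8 CPM in Cd226-/- melanocytes, against 2343 CPM in WT melanocytes. The list's median log2 ratio was -1.13 over all melanocytes, -0.93 over the high range, where 2 Cd226-/- cells were set against 38 WT cells, and -0.01 over the low range, where 5 were set against 20.

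Of 11 regulators of the lineage, 0 were higher and 2 lower, close to the 6.88 and 18.4% of all genes. Mitf was at 483 CPM in Cd226-/- melanocytes, against 515 CPM in WT melanocytes, a ratio of 0.937 (interval 0.68 to 1.26), Sox10 had a ratio of 0.756 (interval 0.352 to 1.44) and Pax3 one of 0.693 (interval 0.403 to 1.12). These 3 intervals include equality. Of 12 receptors and adhesion genes 2 were higher and 4 lower, or 0 and 3 of 8 without cells that carried other signals. Ednrb, the endothelin receptor, was at 282 CPM in Cd226-/- melanocytes, against 1132 CPM in WT melanocytes, and Kit had a ratio of 0.696 (interval 0.443 to 1.05). In the high range Ednrb had 292 and 459 CPM in the Cd226-/- cells, against a median of 1409 CPM in WT cells, 30 of 38 of which lay above both. Mc1r was at 533 CPM in Cd226-/- melanocytes, against 154 CPM in WT melanocytes, but 30 of its 53 Cd226-/- UMIs came from the cell with hemoglobin. Of 12 genes of melanosome transport, 0 were higher and 4 lower. Of 7 stem-like genes with enough UMIs, 1 was higher and 3 were lower. All these counts are to be read beside the 6.88 and 18.4% of all genes, and with lists this short nothing is read from them.

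Among the named genes, Ptgds had the interval farthest from equality. It was at 1318 CPM in Cd226-/- melanocytes and 12780.1 CPM in WT melanocytes, 9.7-fold lower (interval 8.16 to 11.6). Per cell, the lowest, median and highest levels were 0, 1023 and 1879 CPM in Cd226-/- and 0, 8933 and 35498 CPM in WT melanocytes. Every Cd226-/- cell thus lay below the WT median, although the ranges overlapped. In the high range the 2 Cd226-/- cells had 1695 and 1879 CPM, and 37 of 38 WT cells lay above both. Selenop, a selenium carrier protein, was at 261 CPM in Cd226-/- melanocytes, against 1415 CPM in WT melanocytes, and 35 of 38 high-range WT cells lay above both Cd226-/- cells. S100a1, a calcium-binding protein, was at 201 CPM in Cd226-/- melanocytes, against 1071 CPM in WT melanocytes, with 37 of 38 above both. Egfl6, a secreted matrix protein, had 0 UMIs in Cd226-/- melanocytes and 175 in WT melanocytes. With 3 counts put over the Cd226-/- cells Egfl6 was 7.08-fold lower, and its exact interval starts at 5.7-fold.

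Lgals3, the galactose-binding lectin galectin-3, had the most UMIs of the named higher genes. It was at 2504 CPM in Cd226-/- melanocytes, against 859.6 CPM in WT melanocytes, a ratio of 2.91 (interval 2.51 to 3.37). Per cell its lowest, median and highest levels were 285, 2592 and 7784 CPM in Cd226-/- and 0, 733 and 8469.8 CPM in WT melanocytes. In the high range, where Lgals3 had 1942 and 2592 CPM in Cd226-/- cells, 35 of 38 WT cells lay below both. In all, 45 genes were higher and 382 lower by the rule for single genes. The 10 named higher genes were Col12a1, Rpa2, Tnfrsf12a, Lgals3, Litaf, Tagln2, Atad3a, Gtf2f2, Fbl and Mfsd10, and those other than Lgals3 had 9 to 56 UMIs in Cd226-/- melanocytes. The 10 named lower genes were Ptgds, Egfl6, Tmem140, Selenop, Cenpf, S100a1, Mlana, Trpm1, Krt15 and AC149090.1. Krt15 is a keratinocyte gene, with 41 of its 99 WT UMIs in 1 WT cell with keratinocyte genes, and Cenpf is a G2/M gene of the dividing WT cells.

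**Figure D4:**
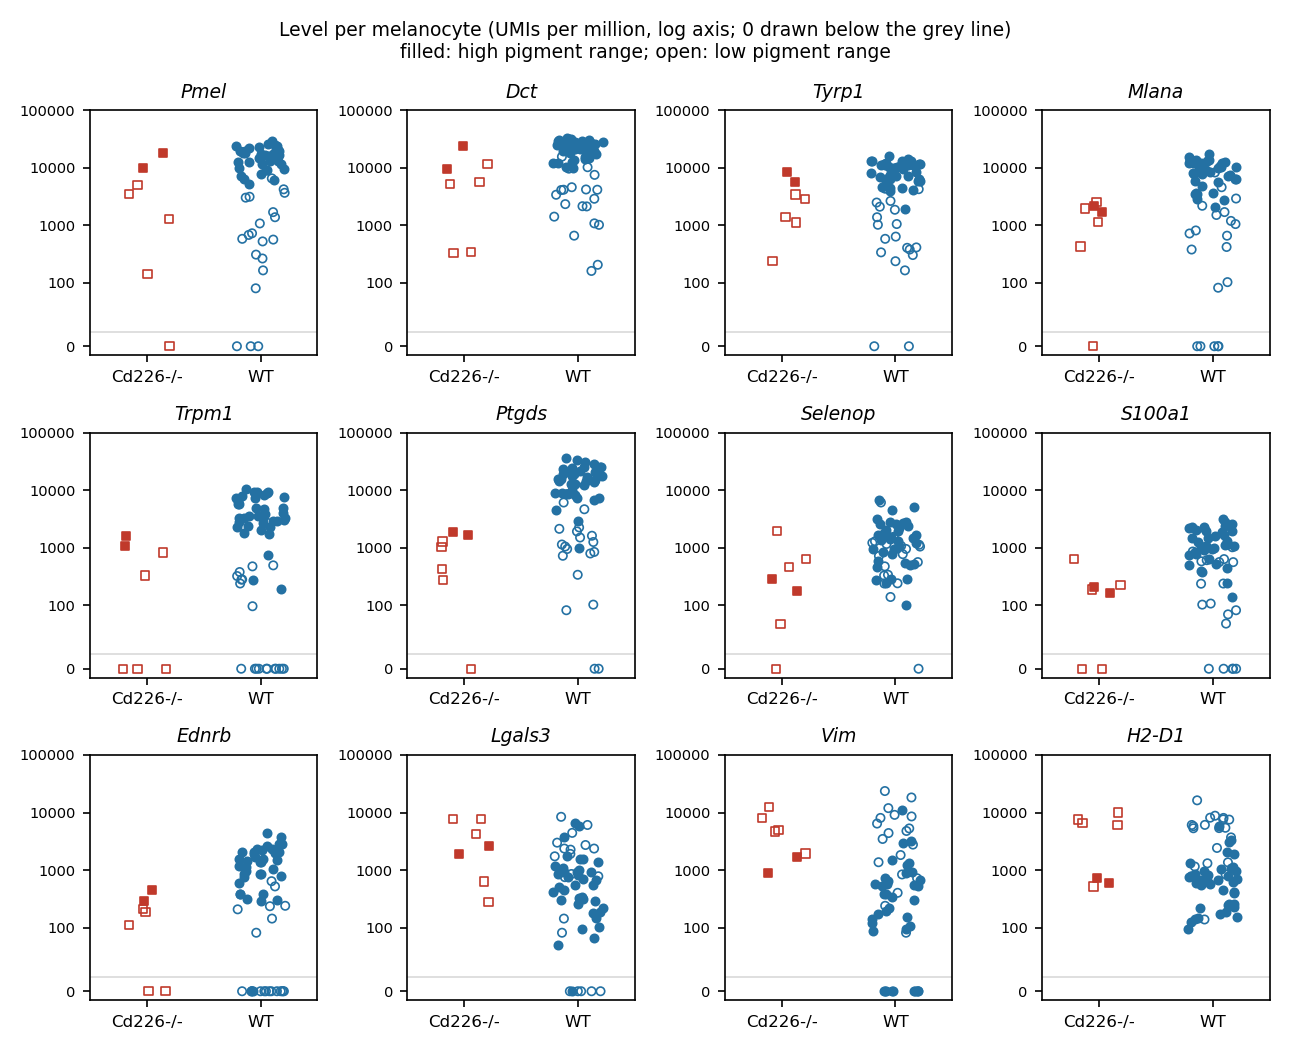
Levels of 12 genes in each Cd226-/- (left, 7 cells) and WT (right, 58 cells) melanocyte, in CPM of the cell's UMIs on a logarithmic axis, with 0 drawn below the grey line; filled symbols are high-range and open symbols low-range cells. For Ptgds, Mlana and S100a1, 37 of 38 filled WT points lie above both filled Cd226-/- points, and for Lgals3 35 of 38 lie below both.

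The lists of the 2 phases of the cell cycle lay in opposite directions, each through few cells, beside 6.88% higher and 18.4% lower over all genes. Of 15 G2/M genes 0 were higher and 13 lower in Cd226-/- melanocytes, with a median log2 ratio of -1.60. Of 11 S-phase genes 9 were higher and 0 lower, with a median of 1.82, and without the richest cell of each gene in each library the S-phase median was -0.07. Of 13 genes of the interferon-gamma and MHC list 1 was higher and 1 lower, with a median of 0.29. H2-D1 was at 2022 CPM in Cd226-/- melanocytes, against 1258 CPM in WT melanocytes, and the high range differed less, with 600.2 and 745 CPM in Cd226-/- cells and a median of 650.5 CPM in WT cells. Of 9 type I interferon genes 1 was higher and 2 lower. Of 12 inflammatory genes 0 were higher and 6 lower, a count that includes Cxcl2 and Il1b, whose WT UMIs came mostly from the cell with 677 CD45-tag counts. Of 18 early-response genes 1 was higher and 10 were lower, with a median log2 ratio of -1.07, but without cells that carried other signals 0 of 14 were higher and 2 lower, with a median of -0.13. Of 7 MAP-kinase output genes 2 were higher and 0 lower, of 10 heat-shock genes 1 and 1, of 6 p53 targets 0 and 1, of 12 oxidative-stress genes 0 and 2, of 5 cell-cycle inhibitors and D cyclins 2 and 0, and of 2 immune markers 0 and 1. Some of these shares lie near those of all genes and others do not. The lists are short, and nothing is read from them. Keratinocyte and fibroblast markers were also lower in Cd226-/- melanocytes, 5 of 6 and 4 of 5, or 2 of 2 and 3 of 4 without cells that carried other signals, and their part in the other lists was not tested.

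A pair of cells, 1 in each treated library, shared a pattern of their own. The Cd226-/- cell with hemoglobin and the WT cell with 386 CD45-tag counts had most of their rule-gene UMIs from Mlana, 54 of 69 and 102 of 105, against 3 and 1 from Pmel. The Mlana part was thus 78.3 and 97.1% of these UMIs, while its median was 6.29% over Cd226-/- and 14.8% over WT melanocytes. Npy, which encodes neuropeptide Y, stood at 14630.4 CPM in the Cd226-/- cell and 23128 CPM in the WT cell, against a median of 503 CPM over WT melanocytes. Both also carried Slc45a2, a melanosome transporter, with 13 and 56 UMIs. They were chosen after their values were seen.

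The naive skin held a single melanocyte by the rule. It had 14502 UMIs, 14 of them of the rule genes and 11 of these of Dct, and keratinocyte genes took 1.67% of its UMIs. Pax3 had 2 UMIs in it, Mitf, Sox10 and Kit had 0, and Fos, Jun and Atf3 had 132, 116 and 75. With 1 cell, in which keratinocyte UMIs outnumbered those of the rule genes, treated melanocytes were not compared with naive ones.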

How the data were processed

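Single-cell 3′ RNA and antibody-tag libraries (10x Chromium v3.1) were read from the deposited matrices, which hold raw UMI counts of 31053 genes and 2 tags per cell barcode. Per the submitters' processing notes, the authors used Cell Ranger 3.1.0 and the mm10 build. Barcodes were filtered as the report states. Because the sorted fractions were mixed, shares are given among kept cells with no Ptprc UMI. UMIs were summed over the melanocytes of a library and divided by their total gene UMIs (CPM). A ratio was formed where both groups together had at least 20 UMIs, a gene at 0 was set to 3 counts, and ratios carry an exact conditional binomial 95% interval. Genes named in the comparison of WT ranges were also compared between the Cd226-/- ranges when they had fewer UMIs there. Each group is 1 library, so there is no test and no p-value. Shares of cells with a UMI were the expected shares after thinning to 2000 UMIs, from the hypergeometric distribution. The interval and ratio steps were tested on simulated data. Scrublet was run per library (scanpy 1.11.5, expected rate 0.06); its calls were left out only as an alternative.

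The members, the 25 gene lists, including marker lists of other cell types, and the 2% pigment boundary were chosen with earlier results of these data known. Named genes are the rule genes, members of lists where a list is described, the first 10 genes in each direction of a comparison, and the 20 genes highest over other cells. Genes named for a single cell were chosen after their values were seen. For the first 10, a gene also had to be at least as high in melanocytes as in the other cells of the library where it is higher; ribosomal, mitochondrial, hemoglobin, sex-linked, variable receptor and unnamed genes were left out. Values of some listed genes are not reported here. Planned contrasts with naive melanocytes were not made, since naive skin held 1 such cell. Alternatives changed the limits for pigment, fibroblast and mitochondrial UMIs, doublets, keratins, scaling, weighting of cells, the richest cell and the count minimum. Software was matplotlib 3.10.9, anndata 0.12.19, pandas 2.3.3, numpy 2.4.6 and scipy 1.17.1 under Python 3.11.15.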

Additional observations from a re-analysis of the deposited data

Results flagged for a closer look

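Pigment transcripts were also present in barcodes outside the kept cells. With at least 10 pigment UMIs, 6 barcodes of the Cd226-/- library, 59 of the WT library and 0 of the naive CD45- library failed the cell filters. All of them exceeded the mitochondrial limit, and 2 Cd226-/- and 15 WT barcodes also fell short of the minimum of genes or UMIs. Their median mitochondrial share was 21.4% in Cd226-/- and 44.4% in WT skin, and 1 Cd226-/- and 15 WT barcodes held at least 200 pigment UMIs. At most 20% mitochondrial UMIs in place of 10% gave 9 Cd226-/- and 69 WT melanocytes.

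Mlana was found in cells with a fibroblast-gene share of at least 2% that are no melanocytes by the rule. Its level there was 15.2 CPM in the Cd226-/- library, 23.6 CPM in the WT library, 37.5 CPM in the naive CD45- library and 12.5 CPM in the naive CD45+ library. In the naive CD45- library Dct stood at 0.0128 CPM in the same cells.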

How the results depend on the processing

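Of the values recomputed under alternatives, 190 moved by less than their limit and 26 by more, and of 158 list medians 13 changed sign, 12 of them from a median nearer 0 than 1. The melanocyte share in WT skin was 1.74% with at least 5 pigment UMIs and 0.275% with at most 5% mitochondrial UMIs. The naive CD45- share was 0 with at least 20 pigment UMIs, without members rich in keratins, and without cells that carried signals of other cells. Between Cd226-/- and WT melanocytes the S-phase median log2 ratio was -0.07 without the richest cell of each gene, which turned its direction. The pigment-synthesis median was -1.96 without the richest cell and -0.01 over the low range, where the melanosome-transport median, of 2 genes, was 1.38. The interferon-gamma and MHC median was -0.39 with at least 5 pigment UMIs, 0.84 with at most 5% mitochondrial UMIs, 0.53 without cells carrying other signals, -0.2 over the low range, 0.01 without the richest cell and 0.72 as a mean over cells. The receptor median of 0.42 was -0.18 with at least 5 pigment UMIs, -0.61 with at most 5% mitochondrial UMIs, -0.36 without cells carrying other signals, -0.65 over the high range and -0.52 with at least 50 UMIs. The regulator median of -0.4 was 0.06 over the high range, the oxidative-stress median of -0.11 was 0.08 with at least 5 pigment UMIs, and the heat-shock median of 0.34 was -0.6 over the low range and -0.3 without the richest cell. The early-response median was -0.22 with at least 5 pigment UMIs and -0.13 without cells carrying other signals. Genes at least 2-fold higher and lower numbered 160 and 281 with at most 5% mitochondrial UMIs, 70 and 232 over the low range, 109 and 1977 without the richest cell, and 106 and 454 with at least 50 UMIs. Higher genes numbered 259 under the other scaling and 2687 with no count minimum. The cause was not tested for any of these.

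No paired analysis was possible because each group is 1 library. The 7 Cd226-/- melanocytes and their 99428 UMIs limit every comparison, and the intervals leave out differences between mice. Alternatives on mixed signals, pigment ranges, their boundary and the 20% mitochondrial limit were added after seeing the data.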
